A study of Xenopus laevis and Xenopus tropicalis with 12 samples.

Results

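The mRNAs of the DNA replication machinery were followed across the vegetal and animal hemispheres of frog oocytes. The genes were taken by symbol: the origin recognition complex (orc1 to orc6), the loading factors cdc6 and cdt1 with their inhibitor gmnn, the MCM family, cdc45, the GINS subunits, the subunits of DNA polymerases alpha, delta and epsilon, primase, the clamp pcna and its loader (rfc1 to rfc5), replication protein A (rpa1 to rpa3), fen1, lig1 and top2a. The rule found 47 gene models of 28165, of which 14513 had a usable symbol. It used no measured value. One model it takes, mcm3ap, encodes a protein that binds MCM3 and acts in mRNA export, and is not a subunit of the helicase.

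The libraries are bulk RNA-seq of oocyte hemispheres separated by hand. X. laevis gave 4 vegetal and 4 animal libraries of stage VI oocytes from females A and B, with the batches A_t1 and A_t2 from female A and B_t1 and B_t2 from female B. X. tropicalis gave 2 vegetal and 2 animal libraries of full grown oocytes from females 1 and 2. The labels give no treatment, mutation or strain for any group. Every vegetal library has an animal partner from the same batch or female, and the batches of 1 female are not separate animals.

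Before DNA can be copied, the origin recognition complex binds it and, with CDC6 and CDT1, loads the ring of MCM proteins that will unwind it, a step called licensing. Kinases then recruit CDC45 and GINS, which turn the MCM ring into the active helicase, and polymerase alpha with primase starts strands that polymerases epsilon and delta extend. The full-grown oocyte is arrested in meiosis and does not copy its DNA. It stores proteins and mRNAs that the egg and the rapidly dividing early embryo use before the zygotic genome is switched on. In Xenopus, CDC6 protein is known to be missing from the immature oocyte and to be made from stored mRNA during maturation.

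Total counts were 30416352 to 45235154 in the X. laevis libraries and 7772801 to 28392285 in the X. tropicalis libraries, and the replication genes held 1.04% to 1.20% and 1.15% to 1.28% of them. All 47 models passed the filter on low counts in both species. Known vegetal mRNAs separated the hemispheres: 6 of 6 (grip2, nanos1, vegt, wnt11b, gdf1 and dazl) were higher in vegetal libraries of both species, and their summed level was 3822 to 5820 CPM in vegetal and 104 to 178 CPM in animal X. laevis libraries. Follicle cell markers summed to 1.78 to 4.13 CPM in vegetal and 2.61 to 4.44 CPM in animal X. laevis libraries, and 0 of the 4 that could be tested there were called by edgeR or DESeq2 or reached an unadjusted p under 0.05. Of the markers of connective tissue, blood, endothelium and immune cells, 12 could be tested in X. laevis and 4 were called there by edgeR, against 27.7% of all models. On the log2 scale of vegetal over animal, fn1 was at 0.76 ± 0.11 (SE; adjusted p = 0.00178) and slc4a1 at 0.49 ± 0.11 (adjusted p = 0.0130). To the animal side lay kdr at -1.57 ± 0.26 (adjusted p = 0.00418) and csf1r at -0.86 ± 0.23 (adjusted p = 0.0293). Both were low, with means of 1.29 (kdr) and 0.55 CPM (csf1r) in vegetal and 3.86 and 1.00 CPM in animal libraries. Of 12 alternatives the call was kept in 12 for kdr and in 7 for csf1r. In X. tropicalis fn1 was called vegetal (0.29 ± 0.08, adjusted p = 0.00122) and cd74 animal (-1.22 ± 0.48, adjusted p = 0.0362). The cd74 means there were low, at 0.52 CPM in vegetal and 1.20 CPM in animal libraries. The connective tissue markers summed to 79.1 to 173 CPM in vegetal and 45.4 to 104 CPM in animal X. laevis libraries, those of blood and endothelium to 10.1 to 15.8 and 9.45 to 14.3 CPM, and those of immune cells to 4.77 to 6.76 and 5.23 to 6.91 CPM. Nearly all of the connective tissue sum was fn1, with means of 124 CPM in vegetal and 73.3 CPM in animal X. laevis libraries. The median of the mean levels of the 7 connective tissue markers was 0.14 CPM there. The part of these cell types in the results was not tested. CPM (counts-per-million after TMM scaling) is the unit of every level, and is a share of the RNA of a hemisphere. A difference between hemispheres in CPM and one in molecules per hemisphere cannot be told apart where the hemispheres hold unequal amounts of RNA. CPM does not correct for gene length, so levels are compared within a gene and not between genes.

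Most replication mRNAs were spread nearly evenly over both hemispheres, and a few were far from even. In X. laevis 4 of 47 were higher in the vegetal hemisphere (cdc6, gmnn, cdt1 and mcm7) at an adjusted p under 0.05 in edgeR's quasi-likelihood test, where 13.2% of all 14517 models tested were called. Another 9 were lower there, that is, higher in the animal hemisphere (orc2, orc5, mcm2, mcm5, mcm6, pole, gins4, lig1 and mcm3ap), against 14.4% of all models. In X. tropicalis 6 were higher in the vegetal hemisphere (orc1, orc6, gmnn, mcm7, mcm8 and pold2; 15.6% of all 12916 models) and 13 in the animal hemisphere (orc2, mcm2, mcm5, mcm6, mcm10, gins1, pole, pole2, rfc1, rfc3, rfc4, rfc5 and top2a; 17.3% of all models). Called in either direction were 27.7% of the replication genes and 27.7% of all models in X. laevis, and 40.4% and 33.0% in X. tropicalis. The share of replication genes called in either direction was therefore that of any gene in X. laevis and close to it in X. tropicalis. By direction, 8.51% of the replication genes were vegetal and 19.1% animal in X. laevis, and 12.8% and 27.7% in X. tropicalis. Whether these shares depart from those of all models was not tested.

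**Figure D1:**
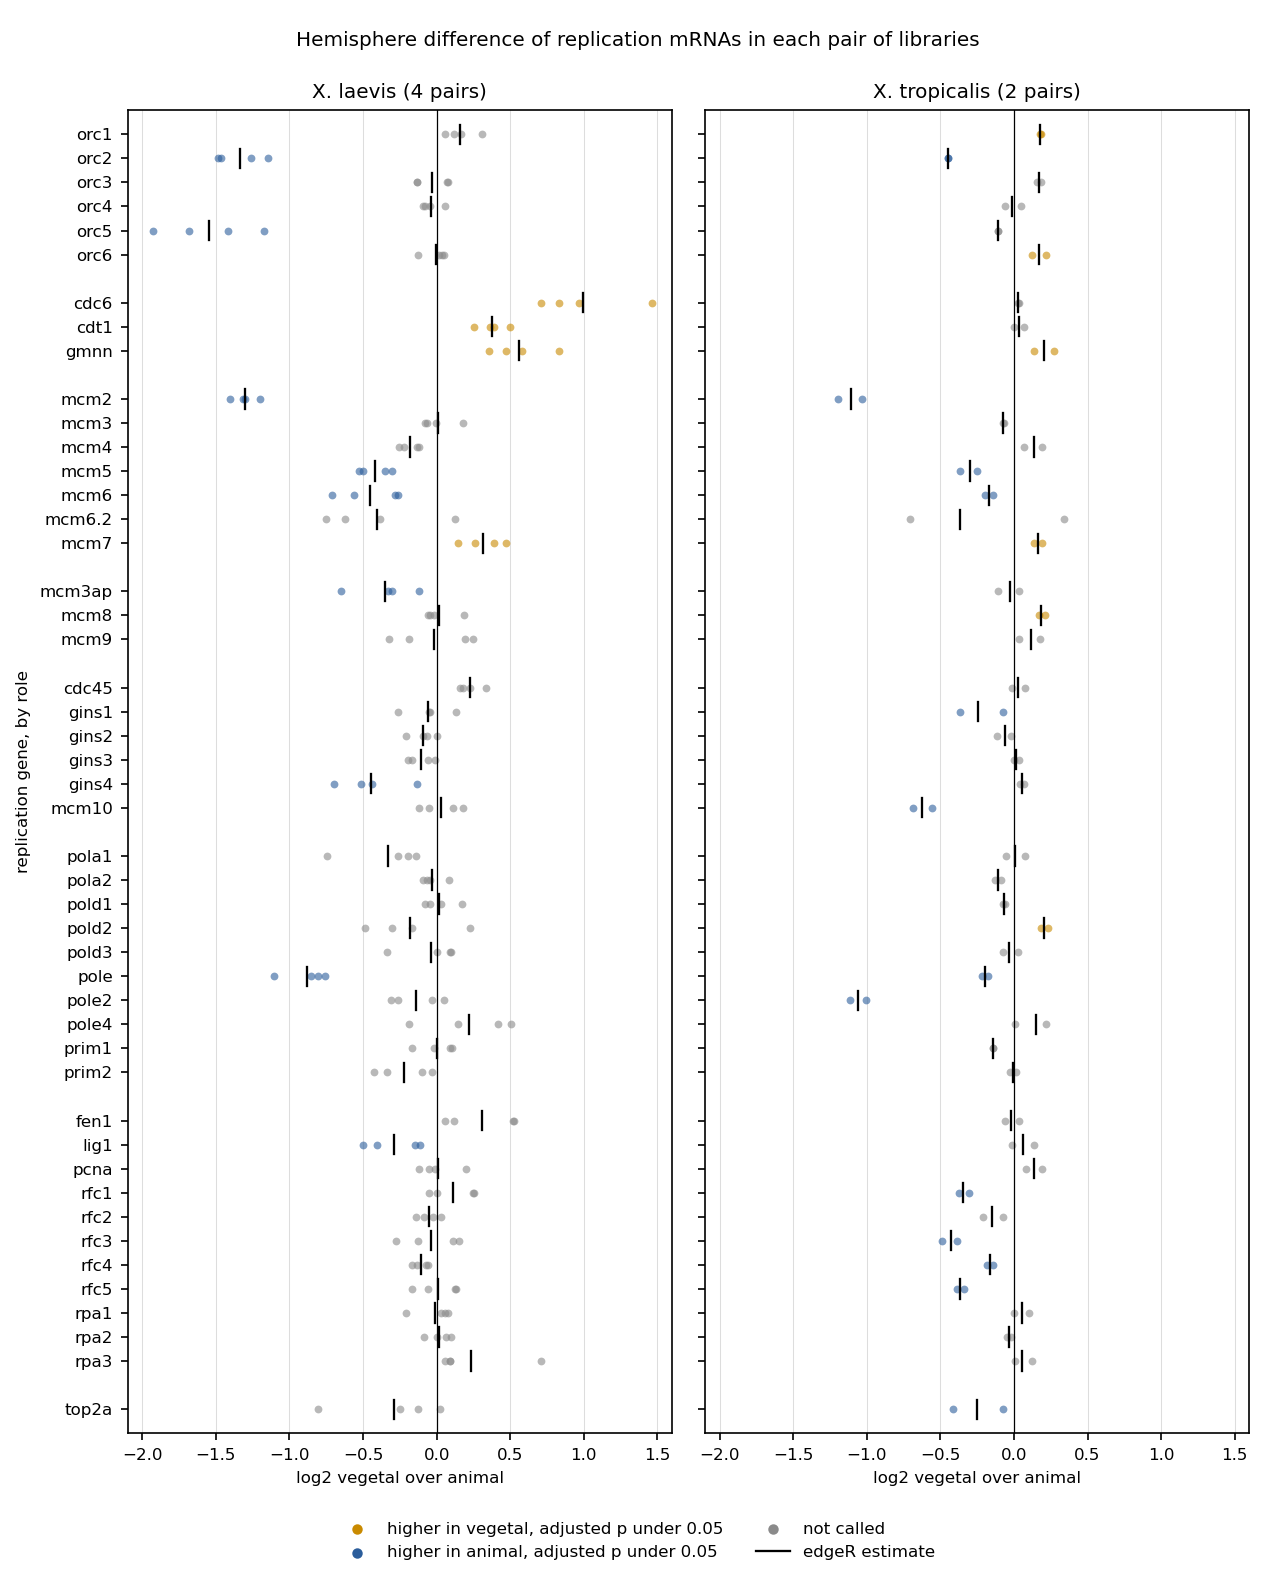
Log2 of the vegetal over the animal level (x axis) of each of the 47 replication genes, by role (y axis), in every pair of libraries. Points are pairs, black bars are edgeR estimates, and colour marks the call. Most genes lie near 0 in both species. In X. laevis orc5, orc2, mcm2 and pole stand to the animal side and cdc6 to the vegetal side, and in X. tropicalis mcm2 and pole2 stand to the animal side.

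The median log2 difference of the replication genes, vegetal over animal, was -0.03 in both species, against -0.01 over all models in each. A log2 difference smaller than 0.25 in size was found for 30 of 47 replication genes in X. laevis (63.8%, against 48.3% of all models) and for 38 of 47 in X. tropicalis (80.9%, against 58.7%). The shares of all models, here and elsewhere, are not matched to the replication genes for level. Whether the number of reads bears on this gap was not tested. At 2-fold or more, 3 genes were called higher in the animal hemisphere of X. laevis (orc5, orc2 and mcm2; 3.58% of all models) and 2 in that of X. tropicalis (mcm2 and pole2; 3.63%). By edgeR as reported, 0 genes were called 2-fold higher in the vegetal hemisphere (3.01% of all models in X. laevis and 3.29% in X. tropicalis). The highest called vegetal differences were those of cdc6 in X. laevis, at 1.99-fold, and pold2 in X. tropicalis, at 1.15-fold. The gene cdc6 lies just under the limit: the X. laevis count was 1 with RLE factors, with A_t1, A_t2 or B_t2 left out, in female B alone and with DESeq2. DESeq2 called 0 in X. tropicalis.

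The vegetal and animal libraries did not overlap for 13 of 47 genes in X. laevis (27.7%, against 21.3% of all models) and for 15 in X. tropicalis (31.9%, against 35.6%), where each group has 2 libraries. In X. laevis 3 of these (cdc6, cdt1 and mcm7) had every vegetal library above the animal ones, and 10 had every vegetal library below (orc2, orc5, mcm2, mcm4, mcm5, mcm6, pole, gins4, lig1 and mcm3ap). In X. tropicalis the 5 above were orc3, orc6, mcm4, mcm7 and rpa1, and the 10 below were orc2, mcm2, mcm3, mcm6, mcm10, pola2, pole2, rfc1, rfc3 and rfc5. Of mcm4, therefore, the vegetal libraries were the lower ones in X. laevis and the higher ones in X. tropicalis, with no call in either. The hemisphere effect of mcm4 was not called different between species (X. laevis minus X. tropicalis -0.32 ± 0.11, adjusted p = 0.097).

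The 2 species carry unequal weight, although each has 2 females. In X. laevis the p-values and standard errors take the 4 batches as replicates. They measure the spread over batches from 2 females, and not over 4 animals. In X. laevis 5 of the 13 calls (orc2, orc5, mcm2, pole and cdc6) were kept in every one of 13 alternative settings, among them each batch left out and each female alone. Without batch A_t2 the calls numbered 2 vegetal and 5 animal, and lig1 lost its call whichever batch was left out. In X. tropicalis the p-values rest almost wholly on the spread pooled over genes. Without the pairing of hemispheres, 0 replication genes were called vegetal and 2 animal (mcm2 and pole2), and DESeq2 with the pairing called 1 and 8. With 1 vegetal library of X. tropicalis left out and no pairing, whichever it was, 0 genes were called in either direction.

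The origin recognition complex is the platform on which licensing starts, and its subunit mRNAs did not share a distribution. In X. laevis orc2 and orc5 were the most animal of all 47 genes with mcm2, while the other 4 subunits lay between -0.04 and 0.16 on the log2 scale and were not called. In X. laevis, for batches A_t1, A_t2, B_t1 and B_t2 in this order, orc2 had 41.7, 33.5, 49.0 and 42.2 CPM in vegetal libraries, against 116, 92.3, 109 and 101 CPM in animal libraries. Every vegetal library was below every animal library, with a log2 difference of -1.34 ± 0.09 (SE; adjusted p = 4.28e-05). In X. tropicalis orc2 had 101 and 99.2 CPM in vegetal libraries of females 1 and 2, against 139 and 135 CPM in animal libraries. The direction was the same and the difference smaller, at -0.45 ± 0.07 (adjusted p = 3.11e-09, and between 0.452 and 0.9998 with 1 library left out and no pairing).

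The subunit orc5 was uneven in X. laevis alone by the calls. Its levels in the X. laevis batches were 21.6, 19.0, 24.7 and 24.8 CPM in vegetal libraries, against 69.5, 72.3, 55.6 and 66.1 CPM in animal libraries. The groups were far apart in both females (log2 difference -1.55 ± 0.13, adjusted p = 0.000134). In X. tropicalis orc5 had 108 and 100.2 CPM in vegetal libraries, against 117 and 108 CPM in animal libraries, and these did not separate (-0.11 ± 0.07, adjusted p = 0.232).

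The other ORC mRNAs were close to even. In X. laevis orc1, the largest subunit and the ORC member with most reads in that species, had 578, 616, 504 and 472 CPM in vegetal libraries, against 556, 497, 451 and 435 CPM in animal libraries. Vegetal was the higher of each pair, yet the groups overlapped and the gene was not called (0.16 ± 0.08, adjusted p = 0.147). In X. tropicalis orc1 had 537 and 427 CPM in vegetal libraries, against 472 and 379 CPM in animal libraries, a call of small size (0.18 ± 0.06, adjusted p = 0.0118) with female 1 above female 2 in both hemispheres. The subunit orc6 had 183, 185, 182 and 180 CPM in vegetal libraries, against 200.3, 183, 178 and 174 CPM in animal libraries of X. laevis (-0.01 ± 0.07, adjusted p = 0.957). The X. tropicalis levels of orc6 were 500.2 and 500.1 CPM in vegetal libraries, against 429 and 460 CPM in animal libraries (0.17 ± 0.06, adjusted p = 0.0203). The orc6 groups overlapped in X. laevis and did not in X. tropicalis. Both X. tropicalis calls were lost without the pairing of hemispheres. Over the alternatives there, orc1 lay between 0.02 and 0.35 and orc6 between 0.11 and 0.23. For orc3 and orc4 the log2 differences were -0.03 and -0.04 in X. laevis and 0.17 and -0.01 in X. tropicalis, with no call.

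Unlike the ORC genes, cdc6, cdt1 and gmnn were all called vegetal in X. laevis. CDC6 and CDT1 are the loading factors that act with ORC, and geminin (gmnn) binds CDT1 to stop a second round of licensing. In X. laevis cdc6 had 230.0, 364, 455 and 342 CPM in vegetal libraries, against 118, 204, 165 and 209 CPM in animal libraries. The lowest vegetal library was above the highest animal library, although levels varied between batches and A_t1 was lowest in both hemispheres (0.99 ± 0.12, adjusted p = 0.00095). In X. tropicalis cdc6 had 609 and 486 CPM in vegetal libraries, against 595 and 477 CPM in animal libraries, with no separation (0.03 ± 0.06, adjusted p = 0.753).

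Geminin differed less. In X. laevis gmnn had 321, 406, 475 and 516 CPM in vegetal libraries, against 214, 317, 267 and 373 CPM in animal libraries. The groups overlapped across batches, while vegetal was higher within each of the 4 pairs (0.56 ± 0.09, adjusted p = 0.00401, and 0.103 without the pairing). Levels of gmnn in X. tropicalis were 885 and 1192 CPM in vegetal libraries, against 734 and 1084 CPM in animal libraries, higher in vegetal within both pairs (0.20 ± 0.06, adjusted p = 0.00389). The females differed more than the hemispheres, and with 1 library left out and no pairing the difference of gmnn lay between -0.06 and 0.51. For cdt1 the log2 difference was 0.38 ± 0.08 in X. laevis (adjusted p = 0.00954) and 0.04 ± 0.06 in X. tropicalis (adjusted p = 0.701).

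**Figure D2:**
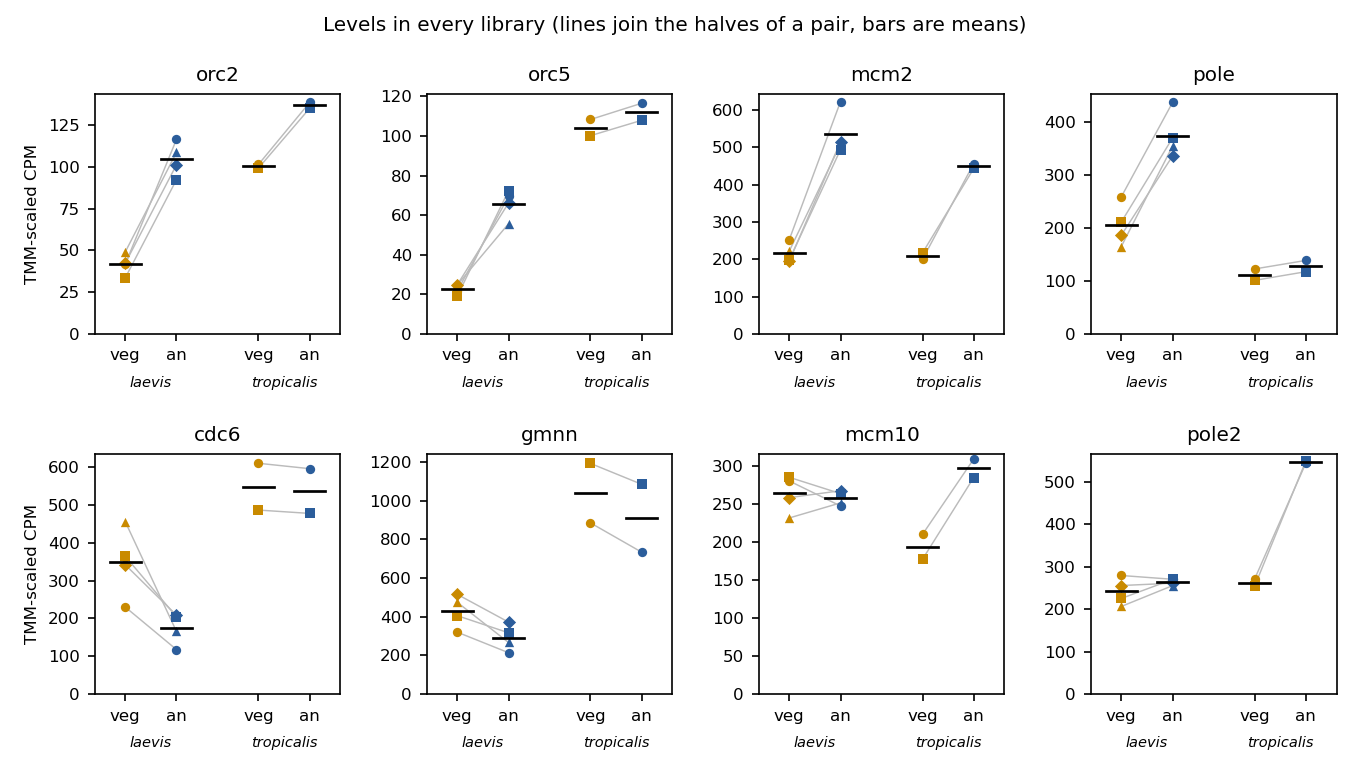
TMM-scaled CPM (y axis, from 0) of 8 replication genes in every library, vegetal (veg) left of animal (an), X. laevis left of X. tropicalis. Lines join the hemispheres of 1 pair, marker shape gives the batch or female, and black bars are group means. In X. laevis orc2, orc5, mcm2 and pole are lower and cdc6 higher in all 4 vegetal libraries than in any animal library. In X. tropicalis orc2, mcm2, mcm10 and pole2 are lower in both vegetal libraries than in either animal library.

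The MCM ring is built from 1 copy each of its subunits, and the mRNAs of these subunits were not distributed alike. The subunit mcm2 was strongly animal and mcm7 mildly vegetal, in both species. In X. laevis mcm2 had 253, 198, 222 and 195 CPM in vegetal libraries, against 622, 494, 508 and 515 CPM in animal libraries. The vegetal level was more than 2-fold lower in every batch (-1.30 ± 0.07, adjusted p = 1.94e-05). In X. tropicalis mcm2 had 199.6 and 217 CPM in vegetal libraries, against 456 and 443 CPM in animal libraries. The difference was close to that of X. laevis (-1.11 ± 0.06, adjusted p = 1.97e-38, and at most 0.183 with 1 library left out and no pairing), and the hemisphere effect of mcm2 was not called different between species (-0.20 ± 0.11, adjusted p = 0.282).

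Of all replication genes, mcm7 drew the most reads in each species. In X. laevis it had 1716, 1937, 1922 and 1694 CPM in vegetal libraries, against 1549, 1395, 1467 and 1415 CPM in animal libraries. The vegetal libraries were all above the animal ones by a small margin (0.32 ± 0.08, adjusted p = 0.0237, and up to 0.108 with 1 batch left out). The X. tropicalis libraries had 1539 and 1483 CPM of mcm7 in vegetal libraries, against 1403 and 1298 CPM in animal libraries, again without overlap (0.16 ± 0.06, adjusted p = 0.0227). That call was kept in 2 of 10 alternatives, with differences between 0.10 and 0.22.

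Between these lay the other ring subunits. The mRNAs of mcm5 and mcm6 were mildly animal in both species, mcm5 at -0.42 ± 0.08 (adjusted p = 0.00593) in X. laevis and -0.30 ± 0.07 (adjusted p = 0.000199) in X. tropicalis. For mcm6 the difference was -0.45 ± 0.10 (adjusted p = 0.0118) and -0.17 ± 0.06 (adjusted p = 0.0251). Of 10 alternatives in X. tropicalis, the call was kept in 5 for mcm5 and in 3 for mcm6. Their differences lay between -0.53 and -0.06 and between -0.24 and -0.09 there. For mcm3 and mcm4 the difference was 0.01 and -0.18 in X. laevis and -0.07 and 0.14 in X. tropicalis, with no call. The second mcm6 model, mcm6.2, which the annotation also lists as zmcm6, is the zygotic form in Xenopus, while mcm6 is the maternal form. It had few reads: 4.80, 4.17, 7.20 and 5.78 CPM in vegetal libraries, against 7.37, 7.02, 6.60 and 7.54 CPM in animal libraries of X. laevis, and 1.51 to 2.47 CPM in the X. tropicalis libraries. The groups overlapped in both species, with no call. The sequences of mcm6 and mcm6.2 are related, so reads could be shared between them.

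Another 3 models carry MCM names outside the ring. MCM8 and MCM9 form a helicase of recombination repair, and their mRNAs lay between -0.02 and 0.18 on the log2 scale in both species. Of them mcm8 was called vegetal in X. tropicalis (0.18 ± 0.08, adjusted p = 0.0498). That call was lost without the pairing of hemispheres, with differences between 0.09 and 0.29 over the alternatives. The export factor mcm3ap had 259.7, 233, 197 and 246 CPM in vegetal libraries, against 282, 288, 309 and 309 CPM in animal libraries of X. laevis. The groups did not overlap (-0.35 ± 0.10, adjusted p = 0.0320, and up to 0.133 with 1 batch left out). In X. tropicalis it had 168 and 140 CPM in vegetal libraries, against 180 and 137 CPM in animal libraries, which overlapped (-0.03 ± 0.06, adjusted p = 0.767).

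CDC45, the GINS complex and MCM10 switch the loaded ring into an active helicase. In X. laevis cdc45 had 653, 704, 559 and 536 CPM in vegetal libraries, against 585, 557, 478 and 473 CPM in animal libraries, higher in vegetal within each pair but overlapping and not called (0.22 ± 0.07, adjusted p = 0.0522). The X. tropicalis levels of cdc45 were 776 and 705 CPM in vegetal libraries, against 737 and 711 CPM in animal libraries, with overlap (0.03 ± 0.06, adjusted p = 0.754). Of the 4 GINS mRNAs, gins4 was animal in X. laevis (-0.45 ± 0.10, adjusted p = 0.0163) and gins1 in X. tropicalis (-0.25 ± 0.07, adjusted p = 0.00439, and between -0.44 and 0.01 with 1 library left out and no pairing). The others were not called. The 2 GINS calls thus fell on different subunits, and the species difference was not called for either.

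The initiation factor mcm10 was even in X. laevis and animal in X. tropicalis. In X. laevis mcm10 had 279.7, 285, 231 and 258 CPM in vegetal libraries, against 247, 263, 251 and 267 CPM in animal libraries, fully overlapping (0.03 ± 0.08, adjusted p = 0.798). Levels of mcm10 in X. tropicalis were 209.6 and 177 CPM in vegetal libraries, against 309 and 284 CPM in animal libraries. Both females showed the lower vegetal level (-0.62 ± 0.06, adjusted p = 1.78e-17, and between 0.125 and 0.931 with 1 library left out and no pairing).

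Polymerase epsilon copies the leading strand, and its most uneven subunit mRNA was pole in X. laevis and pole2 in X. tropicalis. The catalytic subunit pole had 259, 212, 165 and 187 CPM in vegetal libraries, against 438, 370.4, 355 and 336 CPM in animal libraries of X. laevis. The vegetal libraries were all lower (-0.88 ± 0.08, adjusted p = 0.000237). In X. tropicalis pole had 123 and 101 CPM in vegetal libraries, against 139 and 118 CPM in animal libraries, lower in vegetal within both pairs with overlap between females (-0.20 ± 0.07, adjusted p = 0.0114). That call was kept in 4 of 10 alternatives, with differences between -0.32 and -0.06.

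The second subunit, pole2, showed the reverse order of species. In X. laevis pole2 had 279, 225, 206 and 256 CPM in vegetal libraries, against 270.3, 269.8, 255 and 261 CPM in animal libraries, overlapping and not called (-0.14 ± 0.09, adjusted p = 0.263). In X. tropicalis it had 270.4 and 253 CPM in vegetal libraries, against 543 and 548 CPM in animal libraries. In both females the vegetal level was far below the animal one (-1.06 ± 0.06, adjusted p = 3.25e-37, and at most 0.202 with 1 library left out and no pairing). The small subunit pole4 was not called in either species (0.22 ± 0.12 in X. laevis and 0.15 ± 0.11 in X. tropicalis).

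Few calls fell on the remaining polymerase mRNAs. Polymerase alpha and primase lay down the RNA and DNA primers. In both species 0 of their 4 subunits (pola1, pola2, prim1 and prim2) were called, against 27.7% of all models in X. laevis and 33.0% in X. tropicalis. Their adjusted p was 0.0581 and above in X. laevis and 0.0766 and above in X. tropicalis. At an unadjusted p under 0.05, 2 of the 4 passed in X. laevis (pola1 and prim2) and 1 in X. tropicalis (prim1), and DESeq2 called 0 in each. Of all 47 replication genes, 40.4% passed that limit in X. laevis and 51.1% in X. tropicalis. In X. laevis pola1 was at -0.33 ± 0.11 and prim2 at -0.22 ± 0.09, both lower in vegetal within each of the 4 pairs. Polymerase delta copies the lagging strand, and of the 3 subunits found by symbol pold2 alone was called, vegetal in X. tropicalis (0.20 ± 0.07, adjusted p = 0.00918). That call was lost without the pairing of hemispheres, with differences between 0.04 and 0.40 over the alternatives. The symbol rule found no model for the subunits pold4 and pole3.

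The clamp mRNA was close to even, and clamp loader mRNAs were called in X. tropicalis. PCNA is the ring that holds polymerases on DNA, and RFC loads it. In X. laevis pcna had 719, 755, 759.6 and 687 CPM in vegetal libraries, against 780.1, 760.0, 661 and 711 CPM in animal libraries (0.01 ± 0.08, adjusted p = 0.962). In X. tropicalis pcna had 555 and 660.0 CPM in vegetal libraries, against 486 and 625 CPM in animal libraries (0.13 ± 0.06, adjusted p = 0.0741). The pcna groups overlapped in both species. Of the 5 RFC mRNAs, 4 were animal in X. tropicalis (rfc1, rfc3, rfc4 and rfc5), where 17.3% of all models were called animal. The most animal was rfc3 at -0.43 ± 0.07 (adjusted p = 7.65e-08), and the fifth, rfc2, was at -0.15 (adjusted p = 0.0772). These 4 calls were lost without the pairing of hemispheres. Over the alternatives their differences lay between -0.55 (rfc3) and -0.04 (rfc4). In X. laevis the 5 lay between -0.11 and 0.11, and 0 were called by edgeR (lowest adjusted p = 0.285), against 27.7% of all models. Of these 5 RFC mRNAs, 0 passed an unadjusted p under 0.05 there and 0 were called by DESeq2. No RFC gene was called for a species difference (lowest adjusted p = 0.0535).

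The single-strand binding protein RPA showed no call by edgeR or DESeq2 for its 3 subunits in either species and 0 at an unadjusted p under 0.05. By edgeR, 27.7% of all models were called in X. laevis and 33.0% in X. tropicalis. The log2 differences of the 3 RPA mRNAs were -0.01 to 0.24 in X. laevis and -0.04 to 0.06 in X. tropicalis. The flap nuclease mRNA fen1 was at 0.31 ± 0.10 in X. laevis (adjusted p = 0.0633) and -0.02 in X. tropicalis. The ligase mRNA lig1 was called animal in X. laevis (-0.29 ± 0.09, adjusted p = 0.0489) and was at 0.06 in X. tropicalis. Topoisomerase II, which untangles copied DNA, is encoded by top2a. In X. laevis top2a had 262, 198, 141 and 214 CPM in vegetal libraries, against 258, 235, 248 and 233 CPM in animal libraries, with the batch B_t1 lowest in vegetal (-0.29 ± 0.13, adjusted p = 0.141). In X. tropicalis it had 398 and 217 CPM in vegetal libraries, against 418 and 289 CPM in animal libraries, and the females differed more than the hemispheres (-0.25 ± 0.06, adjusted p = 0.000508, and between -0.69 and 0.17 with 1 library left out and no pairing).

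The same gene was called the same way in both species for 7 of the 25 genes called in at least 1: gmnn and mcm7 to the vegetal side, and orc2, mcm2, mcm5, mcm6 and pole to the animal side. These are 53.8% of the X. laevis calls and 36.8% of the X. tropicalis calls. Over the 11688 models tested in both species, calls shared in this way made up 41.9% and 37.1%. Of the replication genes 0 were called in opposite directions, against 2.13% of those models, and 22 were called in neither. The same sign was found for 29 of 47 (61.7%, against 61.4%), so the replication genes were near the background in these shares. The shared calls carry the limits given above for X. tropicalis.

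**Figure D3:**
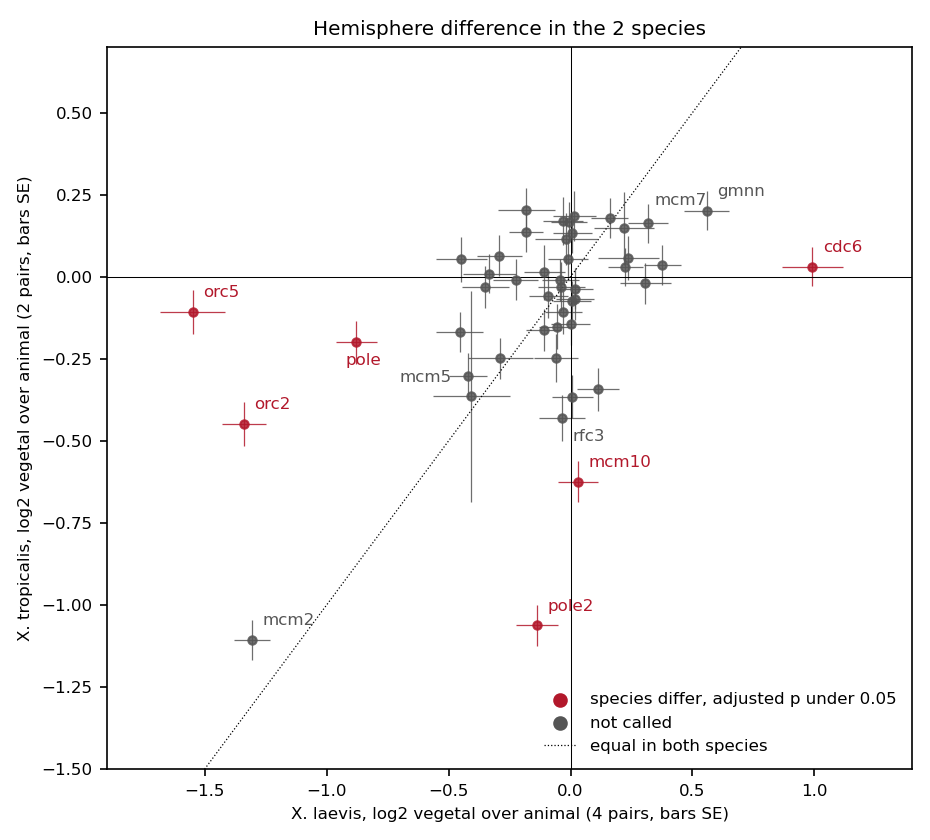
Log2 of vegetal over animal of the 47 replication genes in X. laevis (x axis, 4 pairs) and X. tropicalis (y axis, 2 pairs), with bars of 1 SE. Red points are the 6 genes whose hemisphere difference was called different between species. The gene mcm2 lies close to the dotted line of equal differences, orc5, orc2, pole and cdc6 lie far out along the x axis, and pole2 and mcm10 along the y axis.

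A test of the difference itself, X. laevis minus X. tropicalis, called 6 of 47 genes (12.8%), against 12.5% of the 11688 models tested in both species. More vegetal in X. laevis (6.70% of all models) were cdc6 (0.96 ± 0.19, adjusted p = 0.0123), pole2 (0.92 ± 0.14, adjusted p = 0.00363) and mcm10 (0.65 ± 0.13, adjusted p = 0.0111). More animal in X. laevis (5.77% of all models) were orc5 (-1.45 ± 0.20, adjusted p = 0.00256), orc2 (-0.89 ± 0.14, adjusted p = 0.00377) and pole (-0.69 ± 0.13, adjusted p = 0.0105). For cdc6 and orc5 the uneven mRNA was that of X. laevis, for pole2 and mcm10 that of X. tropicalis, and for orc2 and pole both were animal and X. laevis more so. At 2-fold or more, 0 genes were called more vegetal in X. laevis by edgeR (2.88% of all models) and 1, orc5, more animal (2.75%). This test used a single spread for both species. With the species fitted apart, 9 and 10 genes were called; without female 1 the calls were 0 and 1 (orc5), and without female 2 they were 0 and 0. The sizes moved little: with 1 pair left out, orc5 lay between -1.57 and -1.32 and pole2 between 0.86 and 0.98.

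Within X. laevis, a test of whether the hemisphere difference depended on the female called 0 of 47 genes by edgeR (0% of all models) and 0 by DESeq2, with 1 (orc5) at an unadjusted p under 0.05. The mean log2 difference of orc5 over the pairs was -1.81 in female A and -1.29 in female B, that of orc2 was -1.47 and -1.20, and that of cdc6 was 0.90 and 1.09. Each of these 3 genes thus kept its side in both females.

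The mean level of each mRNA over vegetal and animal libraries was set side by side for the species. No test was made, since reads of both species were counted on X. tropicalis models. TMM scaling was made within each species and not across them. This mean weighs both hemispheres alike, and is the level of the whole oocyte only where they hold equal amounts of RNA. Over the 47 genes, the median ratio of X. laevis over X. tropicalis was 0.917, against 1.02 for the models tested in both. At least 2-fold higher in X. laevis were 5 (10.6%, against 24.6% of all models): mcm5, mcm6.2, pole4, pole and pold2. At least 2-fold higher in X. tropicalis were 6 (12.8%, against 24.4%): mcm9, gmnn, orc6, orc5, cdc6 and rpa3. The 8 X. laevis libraries and the 4 X. tropicalis libraries did not overlap for 26 of the 47 genes (55.3%, against 58.9% of the models tested in both). Geminin had 214 to 516 CPM in X. laevis libraries and 734 to 1192 CPM in X. tropicalis libraries, and mcm5 had 222 to 402 CPM in X. laevis libraries and 70.2 to 115 CPM in X. tropicalis libraries. The loading factors and their inhibitor were higher in X. tropicalis with no overlap, gmnn 2.70-fold, cdc6 2.08-fold and cdt1 1.98-fold. Other licensing genes went both ways: without overlap, orc6 was 2.58-fold higher in X. tropicalis and mcm5 3.32-fold higher in X. laevis. The species overlapped for orc1 and mcm7.

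**Figure D4:**
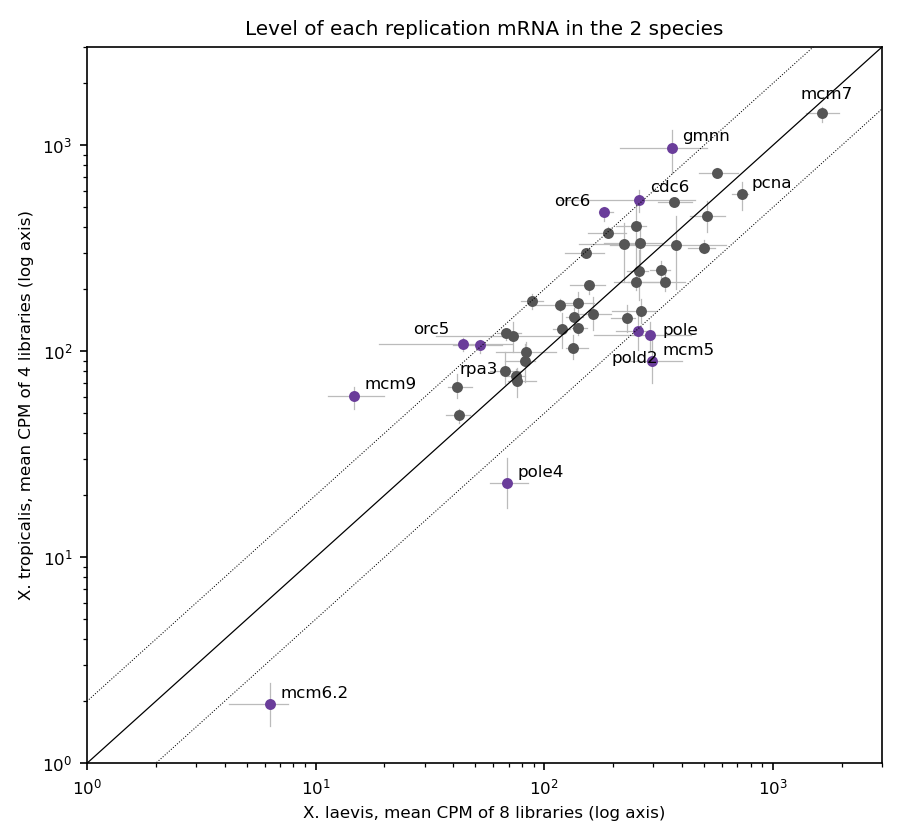
Mean CPM of each replication gene in X. laevis (x axis, 8 libraries, log scale) against X. tropicalis (y axis, 4 libraries, log scale), with grey lines from the lowest to the highest library. The solid line marks equal levels and the dotted lines a 2-fold difference. Purple points lie outside the dotted lines, 6 above (mcm9, gmnn, orc6, orc5, cdc6 and rpa3) and 5 below (mcm5, mcm6.2, pole4, pole and pold2).

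X. laevis is an allotetraploid whose genome keeps L and S copies of many genes. The counts do not separate the copies, and how reads of each were counted is not stated. By symbol, the X. laevis v10.1 gene table listed both copies for 15 of the 47 genes, L alone for 26 and S alone for 6. Of the 15 with both copies listed, 6 were called in X. laevis (cdc6, cdt1, gmnn, mcm2, mcm5 and mcm7), where 27.7% of all models were called. Of the 26 with L alone 6 were called, and of the 6 with S alone 1 was called (orc2). The most uneven X. laevis genes thus included genes with both copies listed (mcm2 and cdc6) and with 1 listed (orc2 and orc5). A copy under another symbol would not have been found.

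Genes that act with the machinery were taken as 5 further lists, whose counts are read against the shares of all models called vegetal and animal, 13.2% and 14.4% in X. laevis and 15.6% and 17.3% in X. tropicalis. Most X. tropicalis calls in them were lost without the pairing of hemispheres. Among factors and kinases that fire origins, 5 of 19 were vegetal and 1 animal in X. laevis, and 8 and 6 in X. tropicalis. The S phase cyclin mRNA ccna2 was vegetal in both (0.69 ± 0.12, adjusted p = 0.00410, and 0.41 ± 0.06, adjusted p = 1.08e-09). Another cyclin mRNA, ccne1, was animal in X. laevis (-0.33 ± 0.09, adjusted p = 0.0238) and vegetal in X. tropicalis (0.28 ± 0.06, adjusted p = 4.95e-05). The species difference of ccne1 was called (-0.62 ± 0.13, adjusted p = 0.0153). The kinase mRNA cdc7, which acts on the MCM ring, was animal in X. tropicalis (-0.55 ± 0.09, adjusted p = 5.88e-08) and not called in X. laevis (-0.30 ± 0.12, adjusted p = 0.106). The species difference of cdc7 was not called (0.24 ± 0.21, adjusted p = 0.497). The list's median log2 difference was 0.05 (X. laevis) and -0.04 (X. tropicalis), against -0.01 over all models in each. The X. tropicalis counts were 4 and 2 with DESeq2, and 0 and 0 without the pairing. In X. laevis they were 2 and 0 without the pairing.

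Among fork protection and checkpoint genes, 1 was vegetal and 7 animal of 23 in X. laevis, and 1 and 5 of 22 in X. tropicalis. The vegetal gene was chek1 in both, the checkpoint kinase that slows the cycle when replication stalls. It averaged 718 ± 214 CPM in vegetal and 133 ± 12.8 CPM in animal libraries of X. laevis (SD, n = 4 libraries each, from 2 females). In those of X. tropicalis it averaged 516 ± 145 and 81.4 ± 27.4 CPM (SD, n = 2 each). Its log2 difference was 2.39 ± 0.16 (adjusted p = 4.23e-05) and 2.68 ± 0.07 (adjusted p = 1.04e-84), beyond that of any of the 47 replication genes. To the animal side in both species lay rad17, the loader of the checkpoint clamp, and the fork protector timeless. For rad17 the difference was -0.80 ± 0.08 (adjusted p = 0.000221) in X. laevis and -0.26 ± 0.07 (adjusted p = 0.000953) in X. tropicalis. That of timeless was -0.35 ± 0.07 (adjusted p = 0.0091) in X. laevis and -0.51 ± 0.06 (adjusted p = 1.22e-12) in X. tropicalis. The species difference was called for rad17 (-0.55 ± 0.12, adjusted p = 0.0167) and not for timeless (0.16 ± 0.10, adjusted p = 0.353). The median of this list was -0.30 (X. laevis) and -0.03 (X. tropicalis). The call of chek1 was kept in every alternative in both species, and the other calls less so: without the pairing the animal count fell to 1 (X. laevis) and 0 (X. tropicalis). In X. laevis it was also 1 without A_t2 and 3 without B_t2, and DESeq2 gave 2 in X. tropicalis.

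In the list of clamp unloading, primer removal and translesion synthesis, 5 of 25 were vegetal and 7 animal in X. laevis, and 6 and 5 in X. tropicalis. The translesion polymerase rev1 averaged 127 ± 12.5 CPM in vegetal and 388 ± 31.8 CPM in animal libraries of X. laevis (-1.62 ± 0.09, adjusted p = 1.43e-05). It was called animal in X. tropicalis too, with a smaller difference (-0.42 ± 0.07, adjusted p = 2.03e-07). The species difference of rev1 was called (-1.21 ± 0.14, adjusted p = 0.00102). The repair polymerase polq was animal in both species (-1.03 ± 0.12, adjusted p = 0.000765, and -1.02 ± 0.06, adjusted p = 8.82e-34). The RNase H2 subunit rnaseh2c was vegetal in X. laevis (1.88 ± 0.19, adjusted p = 0.000323) and the flap nuclease exo1 in X. tropicalis (1.69 ± 0.07, adjusted p = 1.47e-53). The other species had -0.05 for rnaseh2c and -0.47 for exo1, uncalled, and the species difference was called for both (1.90 ± 0.32, adjusted p = 0.00607, and -2.15 ± 0.28, adjusted p = 0.00185). The median log2 difference was -0.13 (X. laevis) and 0.03 (X. tropicalis). The vegetal and animal counts of this list were 1 and 5 in X. laevis and 1 and 0 in X. tropicalis without the pairing. Without A_t2 they were 2 and 4 in X. laevis, without B_t2 they were 2 and 6, and DESeq2 gave 1 and 4 in X. tropicalis.

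Of the chromatin assembly genes, 2 of 17 were vegetal and 5 animal in X. laevis, and 2 and 3 in X. tropicalis. The histone mRNA binding protein slbp was animal in both (-1.08 ± 0.10, adjusted p = 0.00019, and -0.60 ± 0.06, adjusted p = 2.16e-17). The histone chaperone asf1b was animal in X. laevis (-1.02 ± 0.11, adjusted p = 0.000402) and at 0.0005 in X. tropicalis, uncalled. The species difference of asf1b was called (-1.04 ± 0.17, adjusted p = 0.00605). The mRNA of chaf1b, of the assembly factor CAF-1, was animal in both species. It was at -0.45 ± 0.08 (adjusted p = 0.0060) in X. laevis and -1.08 ± 0.07 (adjusted p = 1.02e-33) in X. tropicalis. The species difference of chaf1b was called (0.63 ± 0.12, adjusted p = 0.0117). The median of the chromatin list was -0.18 (X. laevis) and 0.04 (X. tropicalis). Its counts were 0 and 4 in X. laevis without A_t2, 1 and 4 there without B_t2, and 0 and 1 in X. tropicalis without the pairing. Of the nucleotide supply genes, 3 of 19 were vegetal and 2 animal in X. laevis, and 4 and 5 of 20 in X. tropicalis. Here dut, which removes dUTP, was vegetal in X. tropicalis (1.17 ± 0.08, adjusted p = 3.22e-29) and at 0.23 ± 0.13 in X. laevis (adjusted p = 0.208), and the species difference was called (-0.95 ± 0.20, adjusted p = 0.0147). The median of these genes was 0.01 (X. laevis) and -0.01 (X. tropicalis). Without the pairing the nucleotide counts were 1 and 0 in each species, and in X. laevis they were 1 and 0 also without A_t2 or B_t2, and 3 and 1 without A_t1.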

How the data were processed

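Per the labels, total RNA was extracted from hemispheres separated by hand and sequenced from standard Illumina libraries. The deposited files hold the authors' raw counts for 28165 gene models. Bowtie2 (2.1.0), DESeq and edgeR are the tools listed in the submitters' processing notes. Not given in the sources used here are the counting program, the strand setting and the genome build. Reads of X. laevis were also counted on X. tropicalis models, which do not separate L and S copies, and reads of paralogs or overlapping genes may be shared. No coordinates or sequences were used.

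Models that passed filterByExpr (14517 in X. laevis, 12916 in X. tropicalis, 11688 in both) were scaled by TMM within each species. They were tested with edgeR 4.0.16 (quasi-likelihood F test, R 4.3.3), with the batch or female as a block. Adjusted p-values are by Benjamini-Hochberg over all models tested, and a call is an adjusted p under 0.05. Standard errors come from the F statistic. The labels tie the hemispheres of a batch or female. With group means removed, the partners of a pair correlated at 0.616 to 0.838 (X. laevis) and 0.847 (X. tropicalis). Residual degrees of freedom were 3 and 1 per model, with prior degrees of freedom of 4.80 and 161.5. The interaction used 6 blocks.

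Genes given with every library were those called at 1.5-fold or more, those called in the interaction, and the gene of each role with most reads; mcm6.2 was added after its values were seen. From each other list at most the 2 called genes per direction and species with the lowest adjusted p are named. The genes, lists and rules were chosen with earlier results of these data known. Alternatives were no block, library totals, RLE factors, DESeq2 1.42.0, other filters on low counts, libraries or females left out, batches summed and the species fitted apart. Figures were drawn with matplotlib 3.10.9.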

Additional observations from a re-analysis of the deposited data

Results flagged for a closer look

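One replication gene had a library apart from the rest of its group. In the X. laevis animal libraries, mcm2 had 622 CPM in A_t1, against 494 to 515 CPM in the other batches, a gap of 0.833 of the group's range, above Dixon's 95% critical value for 4 samples. Of 30 groups of values checked, 1 was flagged, and chance flags about 1 in 20. Without batch A_t1 the call of mcm2 was kept.

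The hemisphere difference of 6 genes differed between the species by the interaction test, X. laevis minus X. tropicalis on the log2 scale. More vegetal in X. laevis were cdc6 (0.96), pole2 (0.92) and mcm10 (0.65). More animal in X. laevis were orc5 (-1.45), orc2 (-0.89) and pole (-0.69). With 11 alternatives for each, the call was kept in 10 for orc5, in 9 for orc2, mcm10 and pole2, and in 8 for cdc6 and pole, and the direction was the same in all.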

How the results depend on the processing

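In X. laevis the vegetal and animal counts of replication genes, 4 and 9 as reported, were 2 to 6 and 5 to 9 with 1 batch left out, 2 and 8 in female A alone, 2 and 4 in female B alone, and 9 and 12 with batches summed. Without the replicate block they were 3 and 8. In X. tropicalis, 6 and 13 as reported, they were 0 and 2 without the replicate block, 1 and 8 with DESeq2, 1 and 17 with library totals, 3 and 14 at a mean of at least 5 CPM, and 0 and 0 to 2 with 1 library left out and no block. For the species difference, 3 and 3 as reported, they were 0 to 5 and 0 to 5 with 1 pair left out, 9 and 10 with batches summed, and 9 and 10 with the species fitted apart. Library totals moved the median of all models by -0.07 in X. laevis and -0.06 in X. tropicalis.

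Signs turned under at least 1 alternative for 17 of 47 genes in X. laevis, with a reported difference of at most 0.06 in size, and for 25 in X. tropicalis, with at most 0.36 (mcm6.2, which lay between -0.48 and 0.11). Of these, 0 were called in X. laevis and 3 in X. tropicalis (gmnn, gins1 and top2a). In X. laevis orc6 was 0.0187 with RLE factors and with DESeq2, 0.0525 in female B, 0.00774 with batches summed and -0.0228 to 0.0499 with 1 batch left out. There mcm10 was -0.0417 with library totals, -0.0746 in female B and -0.00312 to 0.102 with 1 batch left out. The values of pcna were -0.0666 with library totals, -0.0111 at 5 CPM, -0.0620 in female A and -0.0370 to 0.0627 with 1 batch left out. In X. tropicalis cdc6 and cdc45 were -0.0308 and -0.0310 with library totals. Leaving out 1 library there without the block gave a lowest and highest value of -0.125 and 0.199 for cdc6, -0.0603 and 0.511 for gmnn, -0.221 and 0.169 for mcm3ap, -0.0217 and 0.0997 for cdc45, -0.439 and 0.0147 for gins1, -0.0382 and 0.332 for pcna, and -0.687 and 0.169 for top2a. The causes were not tested.

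Each X. tropicalis group has 2 libraries, so values without 1 of them assume that the lone library varies like the others. Of the replication genes, mcm6.2 had the fewest counts, 16 to 71 in X. tropicalis libraries.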
